A study of Mus musculus with 20 samples.

Results

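The messenger RNA response of macrophages without MyD88 to LPS was set against that of wild-type (WT) macrophages hour by hour, on 10 of the 20 arrays of the series. These were the 5 MyD88-KO arrays and the 5 WT arrays, 1 array of each genotype at 1, 2, 4, 8 and 16 h of LPS. The members were all arrays whose label gives the genotype as MyD88-deficient alone or as WT, and each MyD88-KO array was set against the WT array of the same hour. The other 10 arrays hold TRIF-KO cells and cells without both adapters. TRIF-KO arrays entered the estimate of the spread, and the arrays without both adapters served as a check of the dyes.

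All cells were bone marrow-derived macrophages of the C57BL/6 strain, grown for 6 days in medium conditioned by M-CSF-secreting L929 cells, from mice matched by age and gender. MyD88-KO and WT cells alike were washed into serum-free medium and given 200 ng/mL of ultrapure Salmonella LPS or left untreated for the same time, and each 2-colour Agilent array set LPS-treated RNA against untreated RNA of the same genotype and hour. LPS-treated RNA was in Cy5 on all of these arrays except the MyD88-KO array of 2 h, where it was in Cy3, and that array's ratio was turned. The labels do not say whether arrays came from separate mice or cultures, and no genotype had a second array at any hour. The p-values therefore rest on how unevenly the genotypes changed between the hours of a window, mixed with array noise that may be technical. They do not measure the spread between replicates of the same hour. The labels do not describe how the MyD88 allele was made. The array's Myd88 probe (mm9 annotation of the array) was bright in MyD88-KO and WT cells alike, with untreated log2 levels of 13.91 to 14.37 in MyD88-KO cells against 13.82 to 14.82 in WT cells, so it does not check the genotype label. Fewer cells of a type and less RNA per cell cannot be told apart in such bulk RNA.

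LPS, a component of the outer membrane of Gram-negative bacteria, is recognised by the receptor Tlr4 with Cd14 and Md2. At the cell surface Tlr4 recruits the adapter MyD88, which drives rapid activation of NF-kB and of MAP kinases and the transcription of inflammatory cytokine genes. From endosomes Tlr4 signals through the adapter TRIF, which activates the kinase Tbk1 and the factor Irf3, induces interferon beta and activates NF-kB with a delay. Interferon beta leaves the cell, binds its receptor on the same and neighbouring cells, and induces interferon-stimulated genes. In MyD88-KO macrophages the TRIF branch is the adapter route that is left to Tlr4.

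Throughout, the response is the log2 ratio of LPS-treated over untreated RNA on an array, and the difference is the response in MyD88-KO cells minus the response in WT cells. A level is the log2 intensity of 1 channel after normalization between arrays. Where 5 values stand in a row, they are those of 1, 2, 4, 8 and 16 h. A difference was called when limma's moderated test passed a Benjamini-Hochberg threshold of 0.05 over all genes, with 2 arrays of each genotype at 1 and 2 h, 1 at 4 h and 2 at 8 and 16 h, and the standard errors (SE) printed are those of that fit.

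Fewer genes responded without MyD88 than with it up to 4 h, and more did at 8 and 16 h. A response of at least 1 on the log2 scale was seen in MyD88-KO cells for 85, 648, 1462, 2050 and 1586 genes, and in WT cells for 183, 1014, 1795, 1609 and 1082 genes. At 1 and 2 h, 87.1% and 86.7% of the genes that responded in MyD88-KO cells also responded in WT cells, while 40.4% and 55.4% of those of WT cells also responded in MyD88-KO cells. At 16 h these shares were 23.1% of the MyD88-KO genes and 33.9% of the WT genes. Across genes, the responses of the 2 genotypes at the same hour correlated at 0.69, 0.76, 0.87, 0.64 and 0.41, which is a description over genes that share arrays and normalization. A difference of -1 or below was found for 42, 487, 425, 1319 and 1613 genes, that is 0.191%, 2.22%, 1.93%, 5.99% and 7.32% of the genes measured at each hour. A difference of 1 or above was found for 14, 116, 268, 1655 and 1499 genes, that is 0.0638%, 0.528%, 1.22%, 7.52% and 6.81%. Among the genes that responded in WT cells the median difference was -0.70, -0.56, -0.33, -0.69 and -1.18. Across genes the difference of 8 h correlated with that of 16 h at 0.68, and that of 1 h with that of 2 h at 0.02. The 2 h array of MyD88-KO cells carried the dyes the other way round, and its difference correlated across genes at -0.45 with the mean response of the cells without both adapters, against 0.11 at 1 h.

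**Figure D1:**
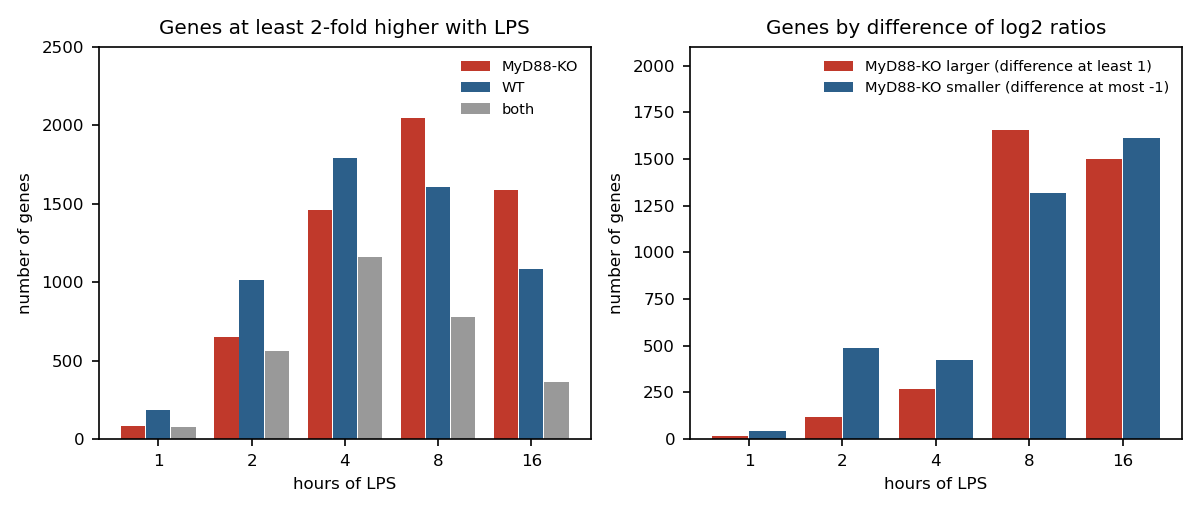
Number of genes (y axis) by hours of LPS (x axis) whose response in MyD88-KO cells differed from that in WT cells by at least 1 on the log2 scale, and number of genes with a response of at least 1 in each genotype, 1 array per genotype and hour. At 1 h, 42 genes lay at -1 or below and 14 at 1 or above, and at 8 h the 2 counts were 1319 and 1655.

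By the test, 0 of 22025 genes were called at 1 and 2 h (limma; 1008 genes, 4.58%, had an unadjusted p under 0.05). At 4 h, 21 of 22003 genes were called (0.0954%), 4 with a larger and 17 with a smaller response (0.0773%) in MyD88-KO cells. At 8 and 16 h, 4423 of 22032 genes were called (20.1%), 2334 with a larger (10.6%) and 2089 with a smaller response (9.48%) in MyD88-KO cells. The difference itself moved between 1 and 2 h and 8 and 16 h for 2140 of 22024 genes (9.72%), upwards for 1350 (6.13%) and downwards for 790 (3.59%). In single channels at 1 and 2 h, the LPS-treated level was called higher for 126 genes (0.572%) and lower for 95 (0.431%) in MyD88-KO cells, and the untreated level higher for 330 (1.50%) and lower for 284 (1.29%). No slide held both genotypes: at 4 h and later the MyD88-KO arrays were scanned on another day than the WT arrays, so that slide, scan day and genotype cannot be told apart there, and with slide as a random block 0 genes were called in every window (consensus correlation 0.89; 1099 genes at 8 and 16 h had an unadjusted p under 0.05). Leaving out the WT array of 8 h or of 16 h left 2518 or 2550 genes called at 8 and 16 h. Without the block that pairs arrays of the same hour, 1592 genes were called at 8 and 16 h, 2 at 4 h and 0 at 1 and 2 h.

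The genes that follow are ordered by when the response needed MyD88. No gene met the test for a need of MyD88 early only or throughout, and the genes of these 2 kinds are given by size alone, with no test. Without the MyD88-KO array of 1 h, which leaves the swapped array alone in the early window, 59 genes were called there and 13 met the rule for early only. A difference of -1 or below at both 1 and 2 h was found for 25 of 21858 genes with values at all hours (0.114%). In 10 of them (0.0457%) the difference was above -0.5 at 8 and 16 h, and of these 10 the rule for naming genes took Ptgs2, Tnfaip3 and Egr2. In 5 genes (0.0229%), Errfi1, Serpinb2, Gadd45a, Mmp13 and Il12b, the difference was -1 or below at all 5 hours.

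The upstream sequences of Ptgs2 and Tnfaip3, with early deficits in response, and of Ifnb1 and Cxcl10, with larger late responses without MyD88, are shown because they belong to the genes at the ends of this order. Each is the 250 bases before the RefSeq start site in build GRCm38.p6, read 5′ to 3′ on the gene's strand. Capitals mark matches on either strand to the kappaB motif of NF-kB (GGG, any 3 bases, TTCC) or to the interferon-stimulated response element, ISRE (GAAA, any 2 bases, GAAA), and no 2 capital stretches overlap.
Ptgs2 (chr1:150099781-150100030, plus strand): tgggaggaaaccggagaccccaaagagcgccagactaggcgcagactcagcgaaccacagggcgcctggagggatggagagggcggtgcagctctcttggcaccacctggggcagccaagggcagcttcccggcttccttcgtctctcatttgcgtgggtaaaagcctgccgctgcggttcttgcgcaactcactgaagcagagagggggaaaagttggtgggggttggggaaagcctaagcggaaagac
Tnfaip3 (chr10:19015411-19015660, minus strand): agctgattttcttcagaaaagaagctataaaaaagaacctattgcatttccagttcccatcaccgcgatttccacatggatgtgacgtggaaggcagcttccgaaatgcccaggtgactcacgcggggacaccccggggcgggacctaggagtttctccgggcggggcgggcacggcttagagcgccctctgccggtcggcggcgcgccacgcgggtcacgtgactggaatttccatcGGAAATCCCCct
Ifnb1 (chr4:88522795-88523044, minus strand): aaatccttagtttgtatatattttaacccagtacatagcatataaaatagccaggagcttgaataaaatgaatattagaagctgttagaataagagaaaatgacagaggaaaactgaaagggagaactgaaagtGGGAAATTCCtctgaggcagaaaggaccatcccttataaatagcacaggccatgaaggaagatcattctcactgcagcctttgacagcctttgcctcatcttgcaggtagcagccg
Cxcl10 (chr5:92348890-92349139, minus strand): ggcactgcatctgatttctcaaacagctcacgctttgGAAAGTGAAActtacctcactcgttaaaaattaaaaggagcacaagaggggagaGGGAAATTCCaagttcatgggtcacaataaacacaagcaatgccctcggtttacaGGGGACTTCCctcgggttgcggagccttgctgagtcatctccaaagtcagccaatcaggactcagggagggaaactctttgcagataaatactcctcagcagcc
The Ptgs2 window held neither motif. The printed Tnfaip3 window held a kappaB match that began 12 bases before the start site. RefSeq gives 2 promoters for Tnfaip3, and the other (chr10:19011964-19012213, not printed) held a kappaB match that began 90 bases before its start site. Ifnb1 held a kappaB match that began 116 bases before the start site. Cxcl10 held an ISRE match that began 213 bases before the start site and kappaB matches that began 159 and 104 bases before it. Among all 32851 promoters of the RefSeq table, counted over 300 bases, 5.56% held the kappaB motif and 3.44% the ISRE.

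Ptgs2 encodes the inducible cyclooxygenase that makes prostaglandins. Its response was 2.03, 4.37, 3.96, 7.26 and 5.25 in MyD88-KO cells, against 3.99, 7.91, 8.01, 7.35 and 4.42 in WT cells. At 1, 2 and 4 h each MyD88-KO value lay below the WT value of its hour, and at 8 and 16 h the genotypes lay within 0.84 of each other. The difference was -1.96, -3.54, -4.04, -0.09 and 0.84, and it moved upwards between 1 and 2 h and 8 and 16 h by 3.12 ± 0.63 (SE, adjusted p = 0.023). In the LPS-treated channel the level was 8.94, 10.80, 11.01, 14.93 and 12.82 in MyD88-KO cells, against 11.24, 14.78, 16.48, 16.01 and 12.09 in WT cells, so the peak of the level was at 8 h in MyD88-KO cells and at 4 h in WT cells. The untreated channel of Ptgs2 was not well above background on the MyD88-KO arrays of 1 and 2 h, so that the ratios there are limited by background. The probe lies at chr1:151954744-151954803 (mm9).

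Tnfaip3 encodes A20, a ubiquitin-editing enzyme that limits NF-kB signalling. Its response was 2.93, 5.35, 4.02, 4.23 and 3.13 in MyD88-KO cells, against 4.29, 6.57, 5.90, 4.53 and 1.83 in WT cells. The response of Tnfaip3 was lower in MyD88-KO cells at 1 to 8 h and higher at 16 h, with no window past the test. At 1 and 2 h its LPS-treated level was 16.38 and 18.56 in MyD88-KO cells, against 17.84 and 18.59 in WT cells. Its untreated level was 13.45 and 13.20 in MyD88-KO cells, against 13.55 and 12.02 in WT cells. Egr2, a zinc finger transcription factor induced within the first hours, had a response of 2.97, 5.30, -0.12, 0.12 and -1.55 in MyD88-KO cells, against 4.12, 6.40, 0.43, 0.32 and -2.02 in WT cells. Its difference of -1.15 and -1.09 at 1 and 2 h lay on top of a response that was already large without MyD88. At 1 and 2 h the LPS-treated level of Egr2 was 15.20 and 17.95 in MyD88-KO cells, against 16.51 and 17.99 in WT cells. Its untreated level was 12.23 and 12.64 in MyD88-KO cells, against 12.39 and 11.59 in WT cells. For Tnfaip3 and Egr2 alike, the difference at 2 h lay in the untreated channel, on the MyD88-KO array with swapped dyes. Il6, the gene of interleukin-6, was lower at 1 to 8 h: its response was 2.19, 5.01, 6.78, 6.12 and 4.68 in MyD88-KO cells, against 3.40, 8.28, 8.93, 8.13 and 3.98 in WT cells.

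Each of the 5 genes with a lower response at every hour passed the test at 8 and 16 h, on values that the size rule had used. Serpinb2, an inhibitor of plasminogen activators, had a response of 0.24, 5.21, 6.06, 3.43 and 4.11 in MyD88-KO cells, against 1.92, 7.89, 8.07, 7.85 and 6.87 in WT cells. Its untreated channel was not well above background on the MyD88-KO arrays of 1, 2 and 4 h. At 8 and 16 h its difference of -3.60 ± 0.47 passed the test (adjusted p = 0.0021). Mmp13, a collagenase, had a difference of -1.05, -1.67, -2.25, -3.10 and -2.75, and its late difference of -2.92 ± 0.31 passed the test (adjusted p = 0.0009). Il12b encodes the p40 chain shared by interleukins 12 and 23. Its response was 0.38, 4.72, 4.81, 3.23 and 0.19 in MyD88-KO cells, against 1.43, 6.46, 6.69, 5.54 and 1.49 in WT cells, and the late difference of -1.81 ± 0.52 passed narrowly (adjusted p = 0.047). Errfi1, a feedback inhibitor of the EGF receptor, had nearly no response at 4 h in MyD88-KO cells, 0.18 against 5.84 in WT cells, after a response of 5.11 against 7.25 at 2 h.

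**Figure D2:**
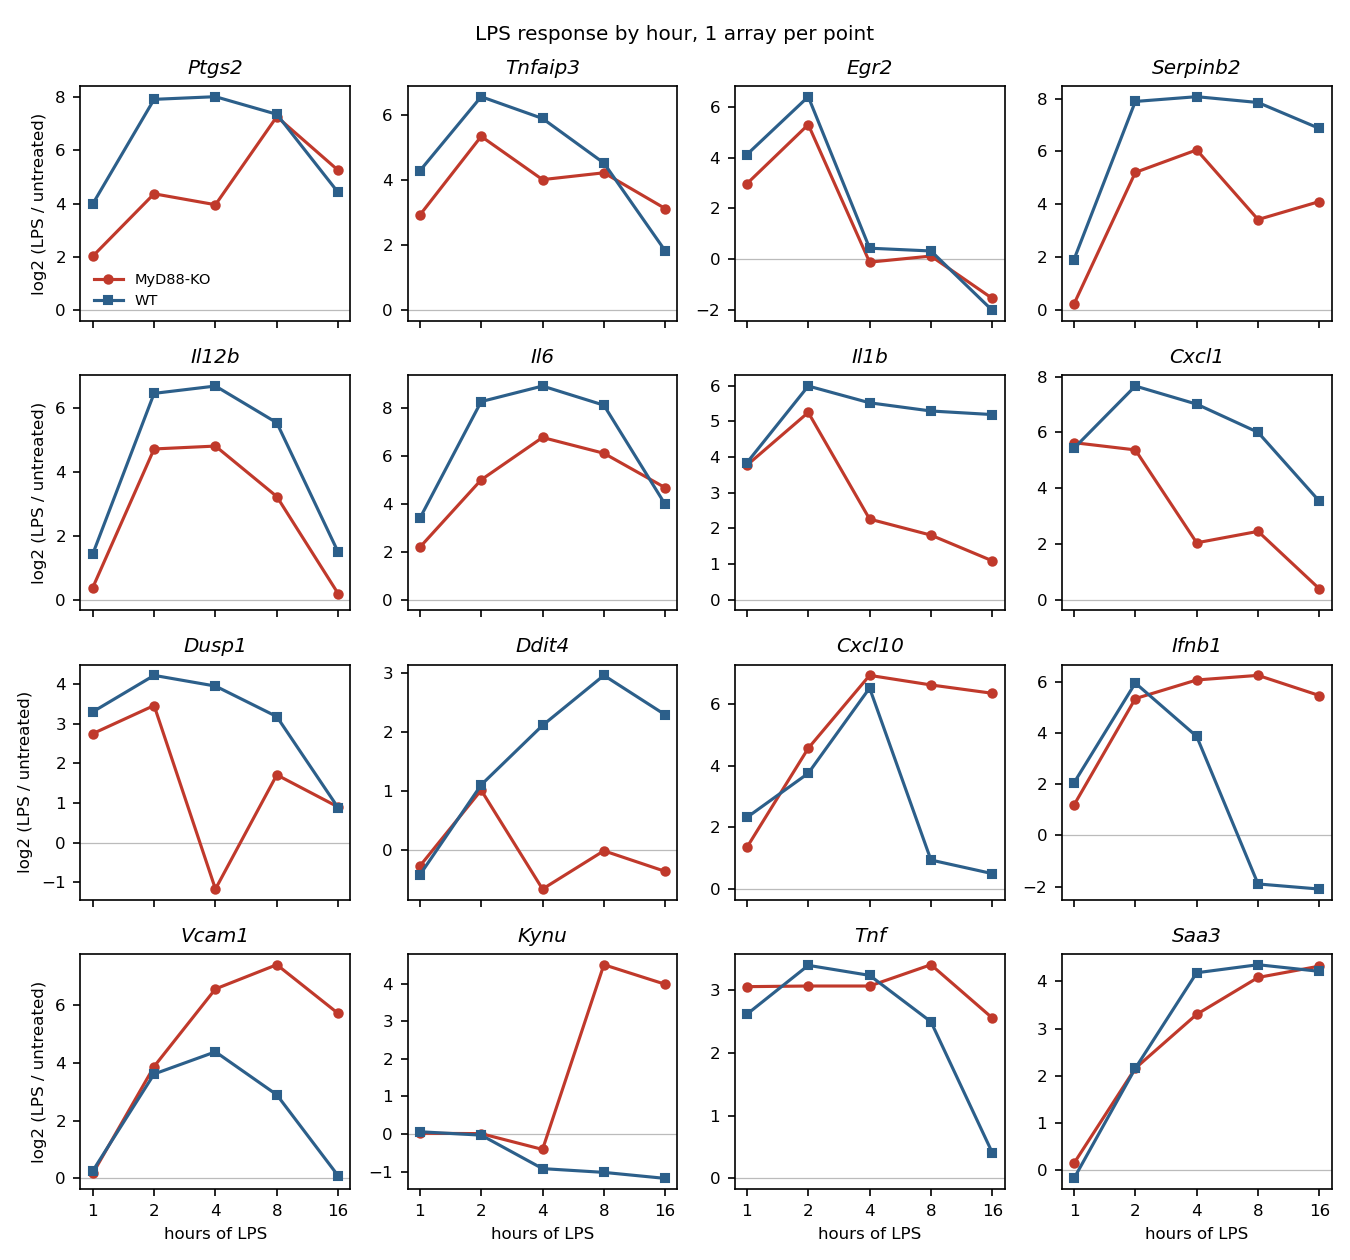
Response (log2 ratio of LPS-treated over untreated, y axis) by hours of LPS (x axis, log scale) for 16 genes in MyD88-KO and WT cells, 1 array per point. Ptgs2 and Tnfaip3 start lower in MyD88-KO cells and cross WT by 16 h, Il1b lies within 0.74 of WT at 2 h and 3.25 below it at 4 h, Cxcl1 lies 2.29 below WT at 2 h, and Cxcl10, Ifnb1 and Vcam1 stay at 5.48 or above in MyD88-KO cells at 16 h while WT lies at 0.50 or below.

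At 4 h the called genes with a smaller response were mostly genes induced in WT cells at that hour. Of the 17, 15 had a WT response of at least 1 at 4 h (0.0681% of all genes), among them Dusp1, Il1b, Myc, Gadd45a, Cd200, Batf, Ddit4, Il17rd, Lcn2, Cp and U90926. This window has 1 array per genotype and is assumed to vary like the others. None of its 21 calls was left with the authors' deposited log ratios or in the fit of MyD88-KO and WT arrays alone.

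Dusp1, a phosphatase that switches off MAP kinases, had the largest of these differences. Its response was 2.75, 3.46, -1.17, 1.71 and 0.90 in MyD88-KO cells, against 3.30, 4.22, 3.95, 3.18 and 0.88 in WT cells, and the difference at 4 h was -5.12 ± 0.54 (adjusted p = 0.037). Only the 4 h array of MyD88-KO cells fell below 0. Il1b encodes the proinflammatory cytokine interleukin-1 beta. Its response was 3.77, 5.25, 2.26, 1.81 and 1.09 in MyD88-KO cells, against 3.84, 5.99, 5.52, 5.29 and 5.19 in WT cells. The genotypes lay within 0.74 of each other at 1 and 2 h, and from 4 h every MyD88-KO value lay below every WT value. The difference was -3.25 ± 0.30 at 4 h (adjusted p = 0.036) and -3.79 ± 0.21 at 8 and 16 h (adjusted p = 0.00014). Its LPS-treated level at 8 and 16 h was 12.72 and 12.70 in MyD88-KO cells, against 18.68 and 18.60 in WT cells. The Il1b probe lies at chr2:129190347-129190406 (mm9).

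Myc, the proliferation factor, had a difference of -1.26, -1.20, -2.44, -1.48 and -0.85, called at 4 h (-2.44 ± 0.24, adjusted p = 0.037). The LPS channel of Myc was not well above background on the MyD88-KO array of 4 h, which limits the ratio there. Ddit4, an inhibitor of the kinase complex mTORC1, responded alike in both genotypes at 1 and 2 h. At 4, 8 and 16 h its response was -0.67, -0.02 and -0.37 in MyD88-KO cells against 2.11, 2.96 and 2.29 in WT cells. U90926 had no response above 0.16 at any hour in MyD88-KO cells, where its LPS channel was well above background on 1 of 5 arrays, against 3.21, 3.20 and 2.84 at 4, 8 and 16 h in WT cells. The LPS-treated level of U90926 at 4 h was at least 39.6-fold lower in MyD88-KO cells.

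The list of 5 neutrophil-attracting CXC chemokines lay lower in MyD88-KO cells from 2 h, where 4 of the 5 had a difference of -1 or below (2.22% of all genes had). Its median difference was -0.22, -1.58, -3.28, -1.71 and -1.20, against -0.01, 0.03, 0.02, 0.02 and 0.00 over all genes. At 8 and 16 h, 3 of the 5 were called lower (9.48% of all genes were) and none higher. Cxcl1 had a response of 5.63, 5.37, 2.04, 2.45 and 0.39 in MyD88-KO cells, against 5.43, 7.66, 7.01, 6.00 and 3.53 in WT cells, and its late difference was -3.34 ± 0.59 (adjusted p = 0.0074). At 1 h the Cxcl1 ratios were alike although the LPS-treated level was 13.84 in MyD88-KO cells against 17.70 in WT cells, and the untreated level was 8.21 in MyD88-KO cells against 12.27 in WT cells. Cxcl3 fell by 2.17 relative to WT at 8 and 16 h (adjusted p = 0.0042) and Cxcl5 by 1.46 (adjusted p = 0.014), whereas Cxcl2, with -0.78 ± 0.56, was not called.

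At 8 and 16 h, 507 genes that responded in WT cells were called with a smaller response in MyD88-KO cells (2.30% of all genes). In 192 of them (0.871%) the need was late only: the difference had also moved downwards since 1 and 2 h, where it was above -0.5. Without both arrays of 1 h, or without both of 2 h, 0 genes met this rule, which needs a test against the early window. The difference of the 192 genes lay in the LPS-treated channel, with a median LPS-treated level difference of -1.95 and a median untreated level difference of 0.06. In the LPS-treated channel 181 of them were called lower (6.95% of all genes were). That level is a term of the ratio by which these genes were chosen, so an excess over this share was built in. The 8 named by size were Egln3, Zfp618, Saa2, Wfdc21, Il1b, Ankrd37, Gab1 and Thbs1. The rule took no account of 4 h, so late only does not mean that a deficit began at 8 h. The differences of these 8 genes at 4 h were, in that order, 0.11, -3.03, -3.60, -1.80, -3.25, -0.14, -0.28 and -1.29.

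Egln3 encodes a prolyl hydroxylase that marks the hypoxia factor Hif1a for destruction and is itself a hypoxia-induced gene. Its response was 0.71, 0.37, -0.52, -2.0 and -1.39 in MyD88-KO cells, against -0.01, 0.85, -0.63, 2.48 and 3.77 in WT cells. The genotypes overlapped up to 4 h and had opposite signs at 8 and 16 h, with a difference of -4.82 ± 0.45 (adjusted p = 0.00057). The LPS channel of Egln3 was well above background on 4 of 5 MyD88-KO arrays, and on 1 of those of 8 and 16 h. Ankrd37, another hypoxia-induced gene, followed the same course, with -2.02, -1.58 and -1.21 at 4, 8 and 16 h in MyD88-KO cells against -1.88, 2.41 and 2.31 in WT cells. Gab1, a docking protein of growth factor receptors, had -2.27 and -2.31 at 8 and 16 h in MyD88-KO cells against 1.81 and 1.02 in WT cells. Thbs1, the matrix protein thrombospondin 1, had 1.19 and -2.14 at 8 and 16 h in MyD88-KO cells against 3.73 and 2.59 in WT cells. Saa2, an acute phase apolipoprotein, was well above background on no MyD88-KO array in either channel, and in WT cells its response reached 3.70, 4.34 and 4.43 at 4, 8 and 16 h. Its LPS-treated level at 8 and 16 h was at least 52.7-fold lower in MyD88-KO cells.

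Of the 14 glycolysis and hypoxia genes, 10 were called lower and 1 higher at 8 and 16 h, against 9.48% and 10.6% of all genes. The list's median difference was 0.08, -0.16, -0.11, -0.85 and -1.34. Slc16a3, a lactate exporter, had 0.09, 0.69, 0.31, -0.68 and 0.15 in MyD88-KO cells, against -0.20, 0.06, 0.25, 1.58 and 1.95 in WT cells, and the late difference was -2.03 ± 0.21 (adjusted p = 0.00084). Slc2a1, the glucose transporter GLUT1, fell by 1.88 relative to WT (adjusted p = 0.0023), Ldha, a lactate dehydrogenase subunit, by 1.69 (adjusted p = 0.0017) and Hif1a by 1.25 (adjusted p = 0.0012). Pfkp, a phosphofructokinase, was the member called higher, with 0.76 ± 0.17 (adjusted p = 0.02). Pfkfb3, an activator of glycolysis, had a response of 0.12 at 4 h in MyD88-KO cells against 4.32 in WT cells, and its late difference of -1.50 ± 0.43 passed narrowly (adjusted p = 0.048).

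For Saa3, Lcn2 and Socs3 the ratios differed less between genotypes than the levels. Of 9 measured acute phase and antimicrobial genes, 4 were called lower in response at 8 and 16 h, 5 lower in the LPS-treated level and 5 lower in the untreated level, against 9.48%, 6.95% and 6.09% of all genes. Saa3, an acute phase apolipoprotein of macrophages, had a late difference in response of -0.08 ± 0.20 (adjusted p = 0.83). Its LPS-treated level at 8 and 16 h was 15.46 and 16.23 in MyD88-KO cells against 18.73 and 18.87 in WT cells, and its untreated level was 11.38 and 11.91 in MyD88-KO cells against 14.38 and 14.66 in WT cells. Both level differences were called, with -2.95 (adjusted p = 0.0011) and -2.87 (adjusted p = 0.00019). Lcn2, the iron-scavenging protein lipocalin-2, had a response of 0.82 and 0.27 at 8 and 16 h in MyD88-KO cells against 2.26 and 2.36 in WT cells, while its LPS-treated level was 11.37 and 10.60 in MyD88-KO cells against 16.54 and 17.14 in WT cells. Socs3, an inhibitor of cytokine receptor signalling, had a late difference in response of -0.60 ± 0.17 (adjusted p = 0.046) beside level differences of -4.21 in LPS-treated and -3.61 in untreated cells. The untreated level of Lcn2 stayed between 10.17 and 10.55 in MyD88-KO cells, against 9.49, 9.77, 11.28, 14.27 and 14.78 in WT cells.

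**Figure D3:**
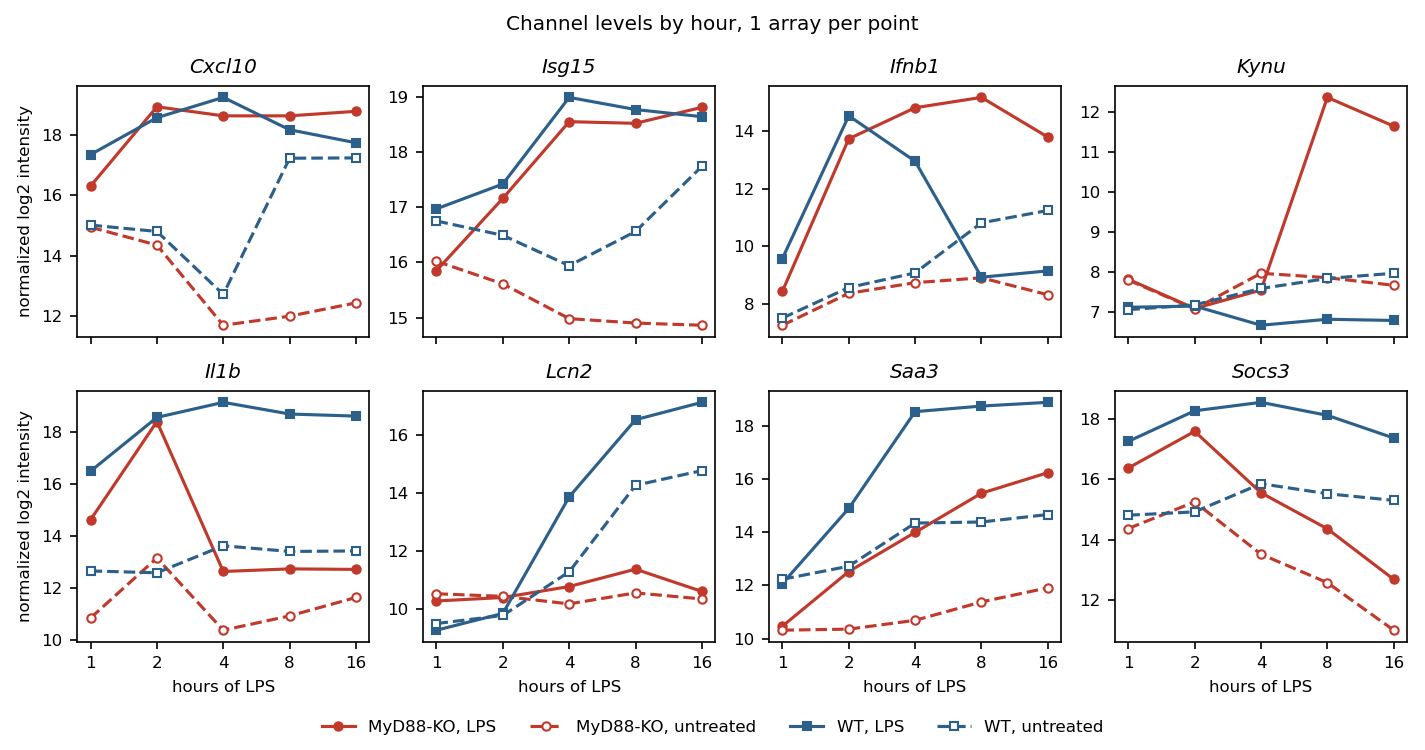
Level of 8 genes (log2 intensity, y axis) by hours of LPS (x axis, log scale) in the LPS-treated and untreated channels of MyD88-KO and WT cells, 1 array per point. Cxcl10 and Isg15 have LPS-treated levels that were not called different at 8 and 16 h and untreated levels that are lower in MyD88-KO cells, Kynu and Ifnb1 have higher LPS-treated levels in MyD88-KO cells, and Il1b, Lcn2, Saa3 and Socs3 have lower LPS-treated levels in MyD88-KO cells.

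Other groups with late losses were smaller or mixed. Among 13 genes of matrix proteases, the plasminogen system and thrombosis, 7 were called lower and 2 higher, against 9.48% and 10.6% of all genes. Mmp12, an elastase of macrophages, fell by 2.69 relative to WT (adjusted p = 0.00074), and Timp1, an inhibitor of metalloproteases, by 1.91 (adjusted p = 0.012), while Plau, the plasminogen activator urokinase, was higher by 2.41 (adjusted p = 0.043). Of 15 sterol biosynthesis genes, 5 were called lower and 1 higher in response, against 9.48% and 10.6% of all genes. In the LPS-treated level 11 of the 15 were called lower, where 6.95% of all genes were. Sqle, squalene epoxidase, had a response of -1.31 and -4.06 at 8 and 16 h in MyD88-KO cells against 0.16 and -0.43 in WT cells. Of 9 antioxidant genes, 3 were called lower (9.48% of all genes were), with Hmox1, heme oxygenase 1, at -0.60 and -0.08 in MyD88-KO cells against 1.99 and 1.84 in WT cells. Arg2, a mitochondrial arginase, had 0.18 and 0.62 in MyD88-KO cells against 3.97 and 3.32 in WT cells (difference -3.25 ± 0.27, adjusted p = 0.00039). Irak3, which restrains MyD88 signalling, had -1.22 and -0.11 in MyD88-KO cells against 2.64 and 1.62 in WT cells (difference -2.79 ± 0.42, adjusted p = 0.0038).

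Genes that responded more without MyD88 were taken as those with a positive difference that was called and a response of at least 1 in MyD88-KO cells. No gene met this rule at 1 and 2 h, 2 of the 4 genes called higher did at 4 h (Kif5c, a kinesin, and Smim5, 0.00908% of all genes), and 1183 of the 2334 called higher did at 8 and 16 h (5.37%). By size alone, with a difference and a MyD88-KO response of at least 1 at both hours, 0 genes were found at 1 and 2 h and 680 (3.11%) at 8 and 16 h. Over the 1183 genes the median difference in response was 1.59, made up of a median of 1.09 in the LPS-treated level and of -0.44 in the untreated level. In 839 of them the LPS-treated level was called higher in MyD88-KO cells (8.46% of all genes were). In 464 the untreated level was called lower (6.09% of all genes were). Both directions raise the ratio difference by which the 1183 genes were chosen, so an excess over these shares was built in. In 316 the untreated channel held the larger part of the difference. The 8 named by size were Ifnb1, Ddx4, Fgl2, Cxcl10, Ccl12, Tnfsf10, Kynu and Ifit1bl1.

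Ifnb1 encodes interferon beta. Its response was 1.19, 5.36, 6.09, 6.27 and 5.48 in MyD88-KO cells, against 2.06, 5.97, 3.88, -1.90 and -2.10 in WT cells. At 1 and 2 h the genotypes were within 0.88 of each other, and at 8 and 16 h the response was above 5 in MyD88-KO cells and negative in WT cells. The late difference was 7.87 ± 0.72 (adjusted p = 0.00052), with 5.45 from the LPS-treated level (adjusted p = 0.0043) and -2.42 in the untreated level (adjusted p = 0.0025). The LPS-treated level at 8 and 16 h was 15.17 and 13.79 in MyD88-KO cells against 8.92 and 9.14 in WT cells, and the untreated level was 8.90 and 8.31 in MyD88-KO cells against 10.81 and 11.24 in WT cells. The probe lies at chr4:88168023-88168082 (mm9).

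Cxcl10, a chemokine that attracts T cells and is induced by interferons, shows the other way in which a ratio can differ. Its response was 1.35, 4.56, 6.92, 6.61 and 6.34 in MyD88-KO cells, against 2.32, 3.75, 6.51, 0.94 and 0.50 in WT cells, a late difference of 5.76 ± 0.54 (adjusted p = 0.00057). The LPS-treated level was 18.63 and 18.78 in MyD88-KO cells against 18.17 and 17.74 in WT cells at 8 and 16 h, a difference of 0.75 that was not called (adjusted p = 0.28). These levels lay near the highest of Cxcl10, 19.24 in WT cells at 4 h, and whether such bright signals were compressed was not tested. The untreated level was 12.01 and 12.45 in MyD88-KO cells against 17.23 and 17.24 in WT cells, a difference of -5.01 (adjusted p = 7.2e-06). At 4 h the untreated level of Cxcl10 was 11.71 in MyD88-KO cells against 12.73 in WT cells. The probe lies at chr5:92775781-92775840 (mm9).

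Kynu, an enzyme of tryptophan breakdown, and Vcam1, an adhesion molecule, differed in the LPS-treated channel instead. Kynu had a response of 0.02, 0.01, -0.41, 4.50 and 3.98 in MyD88-KO cells, against 0.06, -0.03, -0.92, -1.02 and -1.18 in WT cells. Its LPS channel was not well above background on the WT arrays of 4, 8 and 16 h, so that the WT ratios there are limited by background, and its LPS-treated level at 8 and 16 h was at least 36.8-fold higher in MyD88-KO cells. The response of Vcam1 was 0.17, 3.88, 6.57, 7.41 and 5.72 in MyD88-KO cells, against 0.26, 3.62, 4.39, 2.90 and 0.09 in WT cells, with a late difference of 5.07 ± 0.45 (adjusted p = 0.00044) and an LPS-treated level difference of 5.50 (adjusted p = 0.00018). Ddx4, known as a germ cell RNA helicase, Fgl2, a fibrinogen-like protein, and Tnfsf10, the death ligand TRAIL, had late differences of 6.76, 6.40 and 5.46, and each was called higher in the LPS-treated level and lower in the untreated level.

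All 29 measured antiviral genes were called higher in response at 8 and 16 h, where 10.6% of all genes were, and the list's median difference was -0.32, 0.14, 0.50, 1.85 and 3.04. The median response of the list was -0.14, 0.19, 2.91, 2.56 and 2.60 in MyD88-KO cells, against 0.13, 0.13, 1.88, 0.61 and -0.28 in WT cells, so that both genotypes responded at 4 h and only MyD88-KO cells kept a positive median at 16 h. At 8 and 16 h the untreated level was called lower in MyD88-KO cells for 28 of the 29 genes (6.09% of all genes were) with a median of -1.46, and the LPS-treated level was called higher for 21 (8.46% of all genes were) with a median of 1.01. Between 1 to 4 h and 8 to 16 h the untreated level of these genes gained a median of 0.59 in MyD88-KO cells, against 1.24 in WT cells. At 1 and 2 h, with 1.29% of all genes called lower in the untreated level, 20 of the 29 were already called lower there in MyD88-KO cells.

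Ifit1, a sensor of viral RNA, had a response of -0.42, 1.13, 5.77, 4.16 and 4.22 in MyD88-KO cells, against 0.37, -0.03, 4.25, 0.46 and 0.26 in WT cells (late difference 3.83 ± 0.45, adjusted p = 0.0013). Its untreated level at 8 and 16 h was 13.38 and 13.13 in MyD88-KO cells against 15.84 and 15.36 in WT cells. Isg15, a ubiquitin-like protein, had late LPS-treated levels of 18.52 and 18.81 in MyD88-KO cells against 18.77 and 18.64 in WT cells. Its late difference in response, 2.23 ± 0.44 (adjusted p = 0.012), lay in the untreated level, with -2.27. The LPS-treated levels of Isg15 were as bright as those of Cxcl10, and compression was not tested there either. For Mx1, a GTPase gene, both channels took part, with 1.68 in the LPS-treated and -2.10 in the untreated level.

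All 10 guanylate-binding proteins and immunity-related GTPases were called higher at 8 and 16 h as well (10.6% of all genes were), with a median of 3.01. In the untreated level 9 were called lower (6.09% of all genes were), with a median of -1.47. In the LPS-treated level 9 were called higher (8.46% of all genes were), with a median of 1.41. Of 12 interferon regulatory factors and STATs, 6 were called higher and none lower, against 10.6% and 9.48% of all genes. Irf1 had a response of 1.91, 2.91, 4.28, 3.58 and 3.02 in MyD88-KO cells, against 2.24, 3.29, 3.45, 0.19 and -0.41 in WT cells, with a late difference of 3.41 ± 0.16 (adjusted p = 6.5e-05). All 10 genes of MHC class I processing were called higher (10.6% of all genes were), with a median of 1.48. Of these, 8 were called higher in the LPS-treated level (8.46% of all genes were), with a median of 0.88. In the untreated level 5 were called lower (6.09% of all genes were), with a median of -0.69.

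The 7 genes of MHC class II presentation, which show antigen to helper T cells, were all called higher too (10.6% of all genes were). Here 0 of 7 were called in the untreated level (median -0.12), where 5.14% of all genes were called higher and 6.09% lower. In the LPS-treated level 7 of 7 were called higher (median 1.80), where 8.46% of all genes were. H2-Aa had a response of -0.05, 0.84, 0.83, 1.94 and 1.83 in MyD88-KO cells, against -0.33, 0.62, 0.77, 0.00 and -1.69 in WT cells. Cd83 and Cd86, surface molecules of activated antigen-presenting cells, followed the same course. Cd83 had a response of 3.49 and 0.78 at 8 and 16 h in MyD88-KO cells against 1.34 and -4.16 in WT cells, and Cd86 had 3.25 and 3.10 in MyD88-KO cells against 2.03 and -0.66 in WT cells. Of the 11 costimulatory and adhesion molecules, 6 were called higher and 2 lower, against 10.6% and 9.48% of all genes. Slamf1 was among the lower, with -2.97 ± 0.58 (adjusted p = 0.011).

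**Figure D4:**
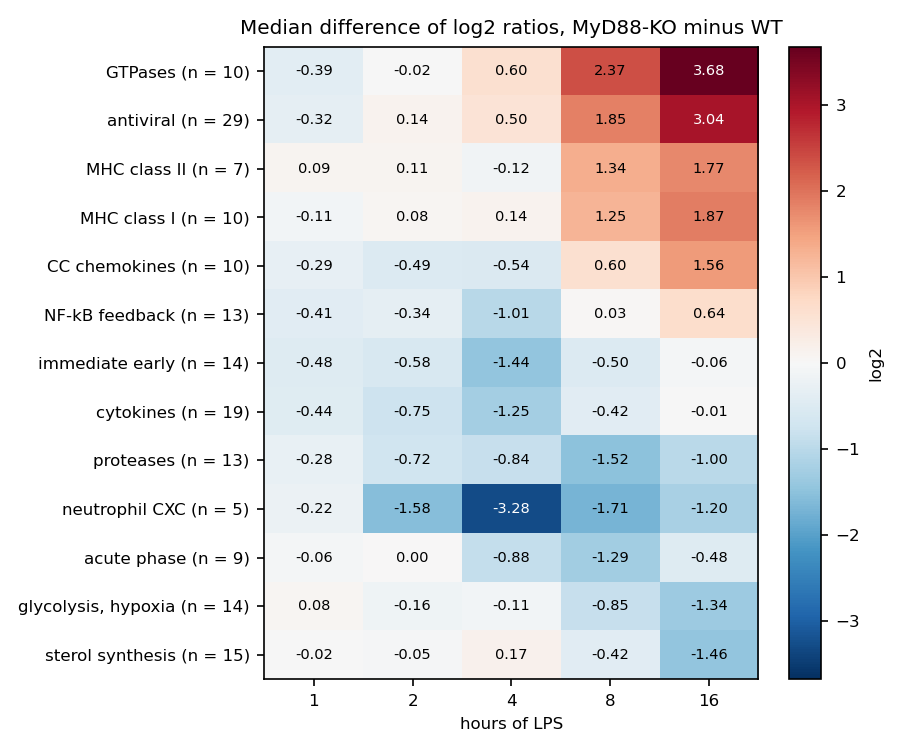
Median difference in response (MyD88-KO minus WT, log2, colour) of 13 gene lists (rows) at 1, 2, 4, 8 and 16 h (columns), 1 pair of arrays per column. Neutrophil-attracting CXC chemokines are lowest at 4 h (-3.28), glycolysis and hypoxia genes are lowest at 16 h (-1.34), and antiviral genes and guanylate-binding proteins are highest at 16 h (3.04 and 3.68).

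Inflammatory cytokines divided. Of 19, 5 were called higher and 5 lower at 8 and 16 h, against 10.6% and 9.48% of all genes, and the median difference was -0.44, -0.75, -1.25, -0.42 and -0.01. Il1a, interleukin-1 alpha, had a response of 1.14, 5.20, 1.91, 0.78 and 0.92 in MyD88-KO cells, against 3.68, 5.93, 5.71, 5.13 and 4.53 in WT cells (late difference -3.98 ± 0.41, adjusted p = 0.00078). The untreated channel of Il1a was not well above background on the MyD88-KO arrays of 4, 8 and 16 h, which limits the ratios there. Csf1, the macrophage growth factor M-CSF, had 0.27, 2.15, 3.50, 3.59 and 2.87 in MyD88-KO cells, against 0.78, 2.71, 3.51, 0.31 and 0.12 in WT cells, the same at 4 h and higher by 3.02 ± 0.15 at 8 and 16 h (adjusted p = 7.5e-05). Tnf, tumour necrosis factor, had a response of 3.06, 3.07, 3.07, 3.41 and 2.56 in MyD88-KO cells against 2.62, 3.40, 3.24, 2.50 and 0.41 in WT cells, so that up to 4 h the genotypes lay within 0.44 of each other. The LPS-treated level of Tnf was 15.34, 15.91, 14.96, 15.54 and 13.42 in MyD88-KO cells against 16.88, 17.95, 17.40, 15.85 and 12.51 in WT cells. Its untreated level was 12.29, 12.84, 11.90, 12.12 and 10.86 in MyD88-KO cells against 14.26, 14.55, 14.16, 13.35 and 12.10 in WT cells, lower without MyD88 at each hour. Its late difference in response, 1.53 ± 0.34 (adjusted p = 0.018), came with an untreated level difference of -1.23 (adjusted p = 0.016) and an LPS-treated one of 0.30 (adjusted p = 0.62). Csf3, the granulocyte growth factor G-CSF, and Il12a, the p35 chain of interleukin-12, were well above background on no MyD88-KO array. The LPS-treated level of Il12a at 4 h was at least 11.7-fold lower in MyD88-KO cells. The LPS-treated level of Csf3 was 6.63 and 6.56 at 8 and 16 h in MyD88-KO cells, against 12.83 and 7.27 in WT cells, so that the WT array of 8 h stood apart from the other 3 arrays.

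CC chemokines were called higher for 5 of 10 (10.6% of all genes were) and lower for none. Ccl12, which attracts monocytes, had 6.75 and 4.88 at 8 and 16 h in MyD88-KO cells against 1.37 and -1.18 in WT cells. For Ccl2 and Ccl7, also monocyte attractants, the late ratio was higher by 1.33 and 1.31 while the untreated level differed by -2.40 and -3.22 and the LPS-treated level was not called. Cxcl9, an interferon-induced chemokine, was the opposite case, with a late response higher by 2.02 and both channels higher, by 4.08 in the LPS-treated and 2.05 in the untreated level. Of 13 genes of NF-kB subunits and inhibitor feedback, none was called at 4 h (median -1.01) and 4 were called higher at 8 and 16 h, among them Nfkbie (1.21 ± 0.17, adjusted p = 0.0031) and Relb (1.08 ± 0.20, adjusted p = 0.0089). The 4 NF-kB genes called higher stand beside 10.6% of all genes. Of 17 brakes on receptor signalling and cytokine mRNA, 4 were called higher and 3 lower at 8 and 16 h, against 10.6% and 9.48% of all genes. Among these brakes, Socs2 had 3.46 and 3.00 at 8 and 16 h in MyD88-KO cells against -0.24 and 0.01 in WT cells.

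**Figure D5:**
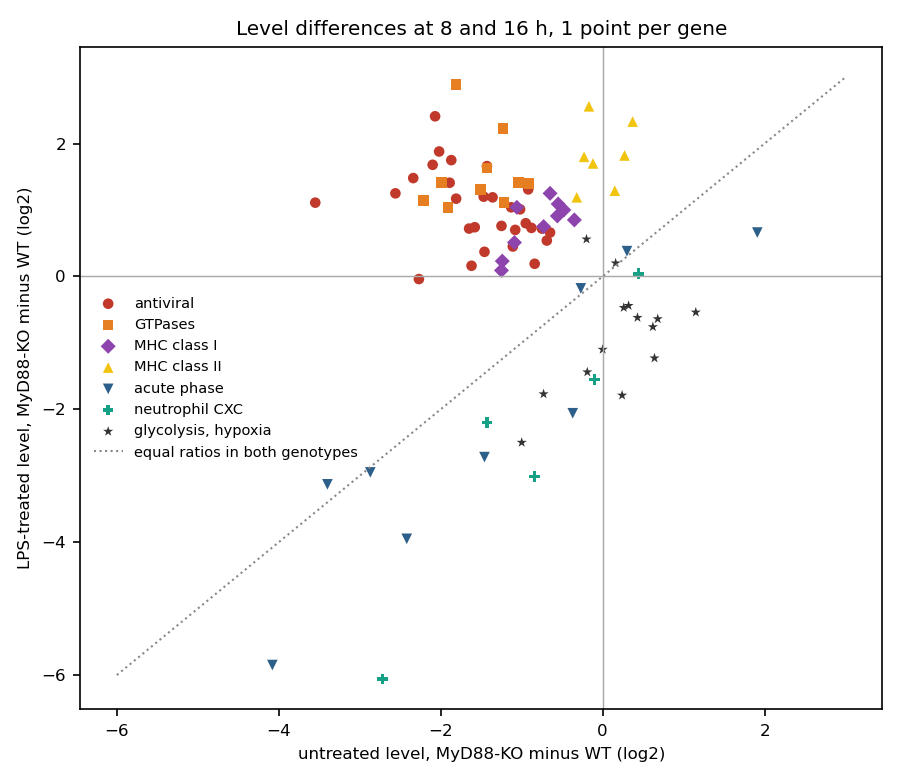
Difference in untreated level (x axis, log2, MyD88-KO minus WT) against difference in LPS-treated level (y axis, log2) at 8 and 16 h for the genes of 7 lists, 1 point per gene, 2 arrays per genotype. Interferon-stimulated antiviral genes have an untreated median of -1.46 and an LPS-treated median of 1.01, with Isg15 at an LPS-treated difference of -0.04, and MHC class II genes lie at an untreated median of -0.12 and an LPS-treated median of 1.80.

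Some genes had a lower level with LPS than without it in WT cells, and less so or not at all in MyD88-KO cells. For 289 genes (1.31%) the WT response at 8 and 16 h was -1 or below and the difference was called positive. Of these, 51 (17.6% of the 289 and 4.31% of the 1183) were also among the genes that responded more without MyD88, Ifnb1, Ddx4, Fgl2, Tnfsf10, Kynu, Kif5c and Tlr12 with them. The 289 genes were chosen by the ratio, so an excess of higher LPS-treated or lower untreated levels was built in. In 225 of the 289 the LPS-treated level was called higher in MyD88-KO cells (8.46% of all genes were). In 72 the untreated level was called lower (6.09% of all genes were), with a median over the 289 of -0.22. A negative WT ratio can thus lie in either channel. The WT LPS-treated level of Fgl2 was 12.62 at 1 h and 12.42 at 16 h, while its untreated level was 12.32 and 14.82. For Kif5c the WT LPS-treated level itself fell, from 11.05 at 1 h to 9.80 at 16 h. Kif5c had a response of 0.03, -0.63, 1.31, 2.13 and 1.66 in MyD88-KO cells, against 0.08, -0.39, -0.76, -2.60 and -2.72 in WT cells, and it was called at 4 h (2.07 ± 0.22, adjusted p = 0.037) and later (4.55 ± 0.15, adjusted p = 2.9e-05). Tlr12, a receptor for profilin of protozoa, had 3.09 and 2.68 at 8 and 16 h in MyD88-KO cells against -1.04 and -1.46 in WT cells. Ccr2, the receptor for Ccl2, had a negative response in both genotypes, with -0.89 and -1.94 at 8 and 16 h in MyD88-KO cells against -3.75 and -4.36 in WT cells (difference 2.65 ± 0.21, adjusted p = 0.0003). At 4 h Aspm, a spindle protein, met the same rule, with a response of -0.05 in MyD88-KO cells against -1.75 in WT cells.

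The promoters of the classes were compared by motif share. The ISRE was found in 11.1% of the promoters of genes with a larger late response in MyD88-KO cells (111 of 998), in 1.62% of those of genes that needed MyD88 late only (3 of 185) and in 3.44% of those of all measured genes (575 of 16711). It was found in 13 of 26 promoters of the antiviral list. The kappaB motif was found in 8.72% of the promoters of genes with a larger late response, in 5.95% of those of late-only genes and in 6.01% of those of all measured genes.

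Markers of other cells were checked beside these groups. The 9 macrophage markers were bright, with a mean untreated level of 15.04 to 15.49 in MyD88-KO cells and 15.15 to 15.45 in WT cells. The measured T cell markers (4 of 6) had means of 8.80 to 9.04 in MyD88-KO cells and 8.78 to 9.09 in WT cells, the 5 B cell markers had 7.68 to 7.87 in MyD88-KO cells and 7.71 to 7.82 in WT cells, and the measured fibroblast markers (4 of 5) had 7.33 to 7.73 in MyD88-KO cells and 7.05 to 7.51 in WT cells. Neutrophil markers differed: the mean untreated level of 7 genes was 11.07 to 11.55 in MyD88-KO cells against 10.44 to 10.66 in WT cells. Of these 7, 4 were called higher (5.14% of all genes were) and 1 lower in the untreated level at 8 and 16 h, among them S100a9, higher by 1.56 (adjusted p = 0.0015). The part of these markers in the differences above was not tested. In response, 1 of the 7 was called higher and 1 lower at 8 and 16 h, against 10.6% and 9.48% of all genes.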

How the data were processed

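The scanner files were deposited as Agilent Feature Extraction 10.10.1.1 wrote them, per their headers, and give mean and background intensities of both channels before correction, with mm9 coordinates. The deposited table of the series holds the authors' log10 ratios of Cy5 over Cy3, which equalled the LogRatio of the scanner files within 5e-10 with column medians of 0, so scale, centring and direction were settled. Between 52.8% and 69.6% of 43020 non-control spots were well above background per channel, and the number of arrays limits the precision.

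Here, background was corrected with normexp (offset 50) with the R package limma (R 4.3.3, limma 3.58.1, jsonlite 2.0.0 and the package data.table, version 1.17.8). Arrays were normalized by loess, and log2 levels by quantiles of mean intensity. Control spots and spots flagged as outliers by the scanner software (at most 0.71%) were left out, and saturated spots (at most 81 per array and channel) kept. Probes had to be well above background in 1 channel on at least 3 of 20 arrays, which left 28388 of 39429, and the brightest stood for its gene, giving 22034 genes. Of the probes, 27317 were named by accession, 3522 by symbol and 551 by synonym in the RefSeq table, and 8039 kept the file's name. Of 1277 genes called at 8 and 16 h with other kept probes, 137 had a probe of opposite sign. A gene missing on an array was fitted without that array (176 genes over the 10 arrays).

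Log2 ratios, and each channel's levels, were fitted on 15 arrays (MyD88-KO, TRIF-KO and WT) with genotype by window means and hour as a block within windows (4 residual and 3.42 prior degrees of freedom). Arrays without both adapters stayed out, and with them the fit called 12 genes at 4 h and 3953 at 8 and 16 h. Labels number arrays by hour, and deviations of MyD88-KO and WT arrays of the same hour from their group means correlated at 0.64, 0.51, 0.70, 0.47 and 0.28, so the hour pairs them. The fit was tested on simulated data.

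Where no array of a group and window measured a channel well above background, the fold of the levels is a bound, written as "at least": the dim group counts per array as its own value or, if greater, as the lowest value well above background there. Levels compare channels across arrays with unbalanced dyes, so dye bias may enter them.

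Named genes were a panel, the 8 genes of largest difference per class with the same sign at both hours, a RefSeq name and detection, and list members with large differences. The genes, lists and classes were chosen with earlier results of these data known. Promoters are those of RefSeq, GRCm38.p6, found for 13423 of 22034 genes. Probe positions within exons were not annotated. Figures were drawn with matplotlib 3.10.9 under Python 3.11.15. Alternatives are given in the closing section.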

Additional observations from a re-analysis of the deposited data

Results flagged for a closer look

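Of 70 sets of 5 untreated levels examined, 2 held an array far from the others of its genotype, relative to the range of the set. The rule is made for replicates, and the 5 arrays of a set are different hours, so no chance rate is given. The untreated level of Csf3 in WT cells was 9.50 at 8 h, with the other WT arrays between 6.70 and 7.02. The untreated level of Vcam1 in WT cells was 7.90 at 8 h, with the others at 8.20 to 8.23.

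For 11 of the panel genes the difference between MyD88-KO and WT responses itself moved between 1 and 2 h and 8 and 16 h, by limma's test of that change with Benjamini-Hochberg adjustment. It moved downwards for Il1b, with -3.39 ± 0.30 (SE, adjusted p = 0.0017), and Lcn2, with -1.70 ± 0.24 (adjusted p = 0.0063). It moved upwards for Ifnb1 by 8.62 ± 1.02 (adjusted p = 0.0038), Cxcl10 by 5.84 ± 0.77 (adjusted p = 0.0052), Vcam1 by 4.98 ± 0.63 (adjusted p = 0.0046) and Cd69, an early activation antigen, by 4.86 ± 0.38 (adjusted p = 0.0013). Among interferon-stimulated genes it moved upwards for Ifit1 by 3.64 ± 0.63 (adjusted p = 0.014), Gbp5 by 2.95 ± 0.73 (adjusted p = 0.046) and Irf7 by 2.25 ± 0.39 (adjusted p = 0.014). For Ptgs2 it moved by 3.12 ± 0.63 (adjusted p = 0.023), with a difference of -3.54 at 2 h and of -0.09 at 8 h, and for Acod1, which makes itaconate, by 2.13 ± 0.32 (adjusted p = 0.0086).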

How the results depend on the processing

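The main counts were 0 genes at 1 and 2 h, 21 at 4 h, 4423 at 8 and 16 h and 2140 for the change of the difference, with 192 genes in need of MyD88 late only, 1183 with a larger response without it and 289 lowered by LPS in WT with a positive difference. No alternative other than leaving out the MyD88-KO array of 1 h called a gene at 1 and 2 h. None of the 201 called differences at 4 h or later of panel, class and list genes changed direction under an alternative (186 were run without an array of 4 h). These differences had been chosen because they were called. MyD88-KO and WT arrays alone, all 20 arrays, no replicate block, the dye term and the trend change the SE. They leave the estimate of a gene with all values as it was, so they could not turn a direction. The count at 4 h was 2 with median centring, 0 with the authors' deposited ratios, 2 with ratios scaled between arrays, 0 with MyD88-KO and WT arrays alone, 12 with all 20 arrays, 4 with a dye term, 41 with the dye effect taken from arrays without both adapters and 12 with a mean-variance trend. Scaling gave 2659 genes at 8 and 16 h, 858 changes of the difference, 112 late only, 556 larger and 148 lowered, and MyD88-KO and WT arrays alone gave 2393, 597 and 73 for the first 3 of these. Median centring gave 117 lowered genes, moved the median of all genes at 1 and 2 h to -0.13 against 0.01, and made 79.7% of the changes of the difference upward against 63.1%. The dye term gave 1168 changes of the difference. The cause of these changes was not tested.

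Arrays of the same hour are paired, and with no replicate block the counts were 2 at 4 h, 1592 at 8 and 16 h, 219 for the change of the difference, 35 late only, 649 larger and 144 lowered. With slide as a random block every count was 0 (0 at 4 h, 0 at 8 and 16 h, 0 for the change and 0 in each class). An unadjusted p under 0.05 was then found for 98 genes at 4 h and 1099 at 8 and 16 h (limma). No slide held both genotypes, so slide and genotype cannot be told apart, and the cause of the loss of calls was not tested. Slide as a fixed block could not be fitted, and scan day as a fixed block was fitted only for 1 and 2 h. Of the 29 antiviral genes, 26 were called higher at 8 and 16 h under scaling, 25 with no replicate block, 0 with slide as a random block, 24 without the WT array of 16 h or without both arrays of 16 h, 28 or 29 without other arrays and 29 under the other settings of the ratios. In the LPS-treated level alone, a comparison chosen after seeing the data, 21 were called higher.

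Leaving out arrays gave 0 to 59 calls at 1 and 2 h, 0 to 205 at 4 h, 2518 to 4723 at 8 and 16 h and 0 to 3611 for the change of the difference. Early only ranged from 0 to 13, late only from 0 to 339, larger responses from 900 to 1330 and lowered genes from 176 to 465. The 59 and 13 came without the MyD88-KO array of 1 h, the 205 without that of 8 h or of 16 h, and the 0 changes without the arrays of 1 h or of 2 h. Late only was 52 and 69 without the WT array of 1 h and of 2 h and 100 without the MyD88-KO array of 1 h, and lowered genes were 176 without the WT array of 8 h and 465 without both arrays of 16 h. A dim gene's ratio is limited by background. Bounds were given for folds of levels only. The printed responses or differences of some genes include arrays with a channel not well above background. Among these genes are Ptgs2, Serpinb2, Saa2, U90926, Kynu, Il1a, Myc, Il12b, Egln3, Tlr12 and Slamf1.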

Other observations

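At 8 and 16 h, where 10.6% of all genes were called higher and 9.48% lower in response, some lists had counts near these shares. Of 15 DNA replication and mitosis genes, 2 were called higher and 1 lower, and of 12 genes of the unfolded protein and integrated stress response, 1 was called higher and none lower. Of 15 genes of the receptor complex and its adapters, 2 were called higher and 1 lower: Irak2, a kinase of the MyD88 complex, by 0.92 ± 0.20 (adjusted p = 0.018, limma), Ikbke, a kinase of Irf3, by 0.70 ± 0.16 (adjusted p = 0.02), and Cd14, the LPS co-receptor, with -1.18 ± 0.30 (adjusted p = 0.033). Of 12 chemokine and metabolite receptors of resting macrophages, 4 were called higher (10.6% of all genes were) and 1 lower (9.48% were), S1pr1, a sphingosine phosphate receptor, with -2.71 ± 0.18 (adjusted p = 0.00019).

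Nos2, the inducible nitric oxide synthase, reached its level later in MyD88-KO cells. Its LPS-treated level was 8.45, 8.70, 12.16, 16.65 and 16.07 in MyD88-KO cells, against 8.11, 8.74, 15.83, 16.91 and 16.15 in WT cells. At 4 h the LPS-treated level differed by -3.67 (adjusted p = 0.00083) and the untreated level by -3.07, so that the response, 3.88 in MyD88-KO cells against 4.48 in WT cells, did not show the difference. Of 14 immediate early transcription factors, 3 were called lower at 8 and 16 h (9.48% of all genes were). Among them was Ier3, which had -0.68, 1.43 and 0.62 at 4, 8 and 16 h in MyD88-KO cells against 2.08, 3.06 and 2.32 in WT cells. Mertk, a receptor for apoptotic cells among the 9 macrophage markers, was higher in late response by 2.40 ± 0.40 (adjusted p = 0.006), and Itgam, the integrin CD11b, had -2.16 ± 0.39 (adjusted p = 0.008).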
